A study of Rattus norvegicus with 40 samples.

Results

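Polysome RNA of regenerating rat liver was compared between 3 animals given rapamycin and 3 given DMSO, the vehicle, before partial hepatectomy. These 6 arrays were chosen by their titles from the 40 arrays of a series on rat liver that also holds fasted and refed adults, fetal livers and total RNA. All were Affymetrix Rat Gene 1.0 ST arrays, on which each transcript cluster is a set of probes along 1 transcript. The rapamycin group was made up of adult Sprague Dawley rats of 125 to 150 g, injected intraperitoneally with 250 µg of rapamycin per 100 g body weight 1 h before most of the liver was removed, and killed 24 h after the operation. The DMSO group had the same strain, weight, operation and times, with DMSO in place of rapamycin. No transgene or engineered allele was named, and no intact liver was part of this comparison, so all 6 livers were regenerating. The time point field of the 3 DMSO arrays named refeeding for 3 h, whereas their titles, descriptions and injection field named hepatectomy; they were grouped by title. Polysome preparations were described as pooled before RNA extraction, without saying whether gradient fractions or animals were pooled. Total RNA of the same livers, on 6 further arrays, entered the fit and is given beside some values.

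Rapamycin inhibits mTOR complex 1, a kinase complex that couples amino acids, insulin and growth factors to protein synthesis and cell growth. Through S6 kinase and the 4E-BP proteins it controls translation, most of all of mRNAs that begin with a 5′ terminal oligopyrimidine (TOP) tract, among them the mRNAs of ribosomal proteins. After partial hepatectomy the remaining hepatocytes, which are normally quiescent, enter the cell cycle almost together, replicate their DNA and divide while still secreting plasma proteins and clearing bile acids. RNA that sediments with polysomes is taken to be RNA that several ribosomes are translating. A change in polysome RNA can therefore come from the amount of an mRNA or from its share on ribosomes.

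Of the 10860 named transcript clusters above the filter on low values, 245 (2.26%) rose and 445 (4.1%) fell with rapamycin in polysome RNA, 6.35% in all (limma, Benjamini-Hochberg adjusted p under 0.05). Below, rose and fell are used for genes past this threshold, and every value is a log2 intensity or, for a change, rapamycin minus DMSO on that scale. Only 0.81% of clusters rose and 2.12% fell by more than 1.5-fold, and the 3 rapamycin values lay wholly above or below the 3 DMSO values for 26.9% of clusters. Counted as genes, 232 of 10203 rose and 397 fell, around a median change of -0.01. Median array intensities were close, 7.09 to 7.14. Along the first principal component, which held 52.6% of the variance, rapamycin arrays 1, 2 and 3 scored 16.4, 8.11 and 22.2, against -2.52, -23.0 and -21.2 for DMSO arrays 1, 2 and 3. DMSO array 1 was thus the nearest of its group to the rapamycin arrays, and it also differed most from the other DMSO arrays. Without it 628 clusters rose and 1059 fell. Without DMSO array 2 the counts were 26 and 38, without DMSO array 3 they were 49 and 49, and without rapamycin array 1, 2 or 3 they were 28 and 52, 112 and 320, and 27 and 30. The fit pooled its spread over polysome and total arrays of the same 6 livers; on the 6 polysome arrays alone, 40 clusters rose and 106 fell. No change of sign occurred among the 690 called clusters in any of these fits, but these clusters had been chosen on the same arrays. On the polysome arrays alone the changes are the same values, so their sign could not turn. Of these 690, 63, 92, 77 and 54 stayed past the threshold without DMSO array 2, DMSO array 3, rapamycin array 1 and rapamycin array 3. The rapamycin effect in polysome RNA did not differ past the threshold from that in total RNA for any cluster (0.0%), while 158 clusters had an unadjusted p under 0.05 in that limma comparison. That fit treated polysome and total arrays of 1 liver as independent, though their correlation was 0.48, which makes this comparison less sensitive. With the liver as a random block in limma, 505 clusters had an unadjusted p under 0.05 and 0 passed. Each value therefore describes the RNA on polysomes, without showing a change in its share on ribosomes.

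**Figure D1:**
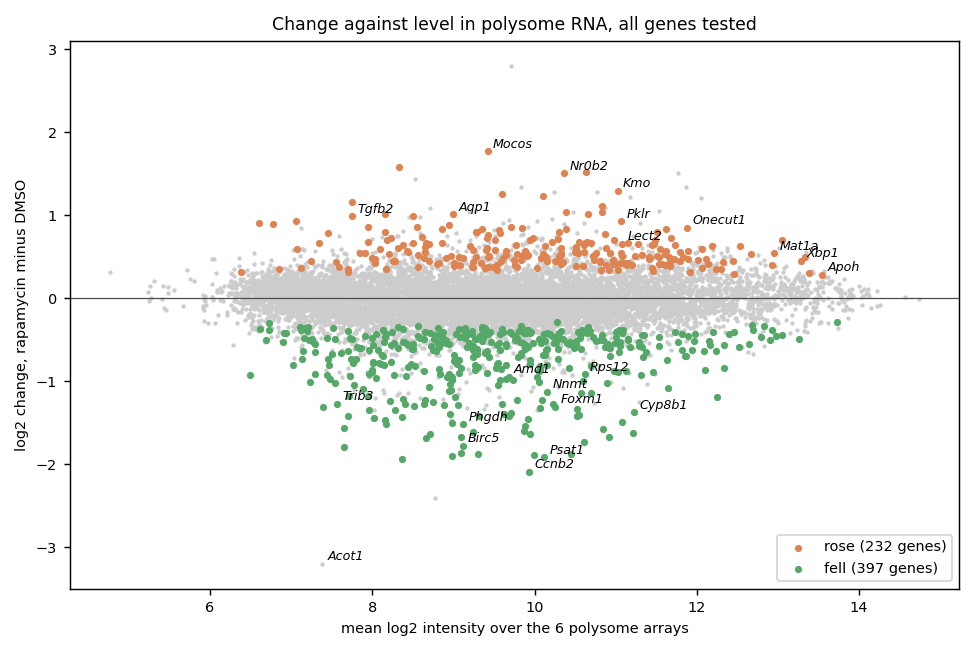
Log2 change in polysome RNA (vertical axis, rapamycin minus DMSO) against the mean log2 intensity over the 6 polysome arrays (horizontal axis) for 10203 genes; coloured points are the 232 genes that rose and the 397 that fell, grey points the rest. The largest falls reached -2.09 (Ccnb2) among genes past the threshold, while the rises ended at 1.77 (Mocos), and Acot1 at -3.20 was not past it.

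Genes of cell division fell with rapamycin and none rose. Of 227 such genes above the filter (245 were on the array), 76 fell, or 33.5% against 4.1% of all clusters, and the median change of the group was -0.56 against -0.01 over all genes. The drop was deepest for genes used in mitosis itself. Of 39 mitotic cyclins, kinases and parts of the anaphase-promoting complex, 23 fell, with a median of -1.12; of 25 kinetochore and checkpoint genes 15 fell, with a median of -1.23; and of 40 kinesin, spindle and cytokinesis genes 16 fell, with a median of -1.07. Total RNA of the same livers had medians of -1.08, -1.28 and -1.28 for these lists. Cdk1, the kinase that starts mitosis, had levels of 8.76, 9.74 and 8.69 in rapamycin livers and 10.52, 10.80 and 10.67 in DMSO livers. The groups did not overlap, and rapamycin liver 2 lay nearest to the DMSO livers, as it did for every gene of these 3 lists named here. Cdk1 fell by 1.60 (SE 0.34, adjusted p = 0.0284). Its partner cyclin B2, Ccnb2, fell most of all genes past the threshold, with 8.71, 9.73 and 8.21 in rapamycin livers against 10.49, 11.29 and 11.14 in DMSO livers, a change of -2.09 (SE 0.44, adjusted p = 0.0257). Aurka, the centrosomal Aurora kinase, changed by -1.86, Nek2, a centrosome kinase, by -1.64, and Cdc20, which turns on that ubiquitin ligase, by -1.67. Knstrn and Bub1, of the kinetochore and its checkpoint, changed by -1.90 and -1.54, and Cenpa, the histone variant of centromeres, by -1.63. In cytokinesis, Cep55, which acts in the final cut between daughter cells, changed by -1.93, Ect2, which activates RhoA at the cleavage furrow, by -1.89, its partner Racgap1 by -1.61, and the kinesin Kif20a by -1.88. Birc5 (survivin), of the chromosomal passenger complex, had 8.03, 8.60 and 8.04 in rapamycin livers against 9.65, 10.11 and 10.25 in DMSO livers and was the only member of these lists that passed in all 6 fits that left out 1 polysome array (change -1.78, SE 0.26, adjusted p = 0.00888). The number of cell division genes that fell was 104 without rapamycin array 2 and 88 without DMSO array 1, but 1 without DMSO array 2 or rapamycin array 3, 3 without DMSO array 3 and 4 without rapamycin array 1. The medians moved much less: for the mitotic list they stayed between -1.37 and -0.89 over these 6 fits.

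Lists of earlier steps of the cell cycle had medians nearer to 0. The share that fell was 11.1% in the G1 list, 11.4% in DNA replication and 26.1% in nucleotide synthesis. It was 35.3% in the repair list and 14.3% in the condensin and cohesin list, against 4.1% of all clusters. Of 18 genes of G1 cyclins, their kinases and inhibitors, 2 fell: Ccng1, a p53-induced cyclin, by 0.88, and Cdkn1b (p27), an inhibitor of cyclin-dependent kinases, by 0.41. Ccnd1, the cyclin that links growth signals to G1, had 11.96, 12.01 and 11.72 in rapamycin livers and 11.03, 12.10 and 12.32 in DMSO livers. Those groups overlapped, and the change of 0.08 (SE 0.34) was not past the threshold. Cdkn1a (p21) had a change of -0.68 (adjusted p = 0.0818). Among 44 DNA replication genes 5 fell, with a list median of -0.45: the clamp loader subunits Rfc4 and Rfc5 (-1.19 and -0.80), Gins4 of the replicative helicase (-1.12), the licensing inhibitor Gmnn (-0.95) and Pold2 of DNA polymerase delta (-0.80). Of 23 enzymes of nucleotide synthesis 6 fell, led by Rrm2, the ribonucleotide reductase subunit made for S phase, with 11.40, 12.32 and 11.24 in rapamycin livers and 12.93, 13.10 and 12.49 in DMSO livers (change -1.19, adjusted p = 0.0328). The others were Dut (-0.98), which removes dUTP, thymidine kinase Tk1 (-0.83), Nme1 (-0.68), Dhodh of pyrimidine synthesis (-0.51) and Pfas of purine synthesis (-0.48). Of 17 genes of homologous recombination and Fanconi repair all 17 had changes below 0 and 6 fell: Parpbp (-1.69), the checkpoint kinase Chek2 (-1.31), DNA polymerase theta Polq (-1.01), the nucleases Exo1 (-0.97) and Eme1 (-0.93), and Xrcc2 (-0.87). Of 21 condensin, cohesin and chromatin compaction genes 3 fell: the histone methyltransferase Ezh2 (-0.84), the cohesin subunit Rad21 (-0.65) and Hmgb3 (-0.48). For the genes named in these last lists the call was lost in at least 3 of the 6 fits that left out an array.

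Promoters of the mitotic genes are shown because the genes moved together. Genes of late cell cycle phases are known for a pair of motifs bound by NF-Y (CCAAT) and by the MuvB complex (the cell cycle homology region, TTTGAA), and both were searched on either strand in the 250 bases before the start of each RefSeq promoter. CCAAT was found in 73.3% of 30 promoters of the mitotic list and 65.7% of 35 promoters of the spindle list, against 36.2% of the 8455 tested genes with a promoter and 34.3% of all promoters in the table. TTTGAA was found in 40% and 42.9% of them, against 10.1% of tested genes and 16% of all promoters. In the kinetochore list the shares were 39.1% and 26.1% of 23 promoters. A high CCAAT share was not particular to lists that fell: it was 82.4% of 17 promoters of cholesterol synthesis and 61.5% of 26 of fatty acid synthesis, lists with no gene past the threshold, 61.8% of 34 of endoplasmic reticulum genes and 61.3% of 31 of cytosolic chaperones. TTTGAA was in 11.8%, 0.0%, 2.94% and 3.23% of the promoters of these 4 lists. A high TTTGAA share was not particular to lists that fell either. It was 36.8% of 19 promoters of complement genes, 29.4% of 17 of macrophage markers and 26.5% of 34 of P450 genes, lists in which no gene fell. Of the 46 mitosis genes that fell and had a promoter, 15 held both motifs. A match of letters describes the window and is no evidence of binding. The 150 bases before the start of Ccnb2 (cyclin B2, GRCr8 chr8:79981659-79981808), Kif22 (a chromosome-arm kinesin, change -1.68, chr1:191080879-191081028), Cdc20 (chr5:137255800-137255949) and Pttg1 (securin, change -1.62, chr10:28406327-28406476), all on the minus strand, follow 5′ to 3′ as transcribed, with each motif, or its reverse complement, in capitals:
Ccnb2: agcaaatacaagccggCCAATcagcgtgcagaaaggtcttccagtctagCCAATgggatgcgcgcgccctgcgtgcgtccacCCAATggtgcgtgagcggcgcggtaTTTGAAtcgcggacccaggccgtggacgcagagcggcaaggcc
Kif22: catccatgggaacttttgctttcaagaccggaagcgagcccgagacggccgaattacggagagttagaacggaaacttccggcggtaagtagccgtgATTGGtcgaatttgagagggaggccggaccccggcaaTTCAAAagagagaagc
Cdc20: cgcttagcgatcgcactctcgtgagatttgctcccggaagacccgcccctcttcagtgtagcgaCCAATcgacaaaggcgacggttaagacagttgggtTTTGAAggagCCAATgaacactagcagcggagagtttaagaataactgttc
Pttg1: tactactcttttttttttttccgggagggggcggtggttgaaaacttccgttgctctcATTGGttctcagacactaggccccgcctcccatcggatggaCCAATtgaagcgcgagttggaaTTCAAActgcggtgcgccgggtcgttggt

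Some factors of cell cycle transcription fell as well, and whether they had a part in the fall of the mitotic genes was not tested. Of 27 E2F, Myc and MuvB factors 6 fell (22.2%, against 4.1% of all clusters) and none rose. Lin54, the subunit of the MuvB complex that binds DNA, had 9.45, 9.77 and 9.50 in rapamycin livers and 10.24, 10.40 and 10.30 in DMSO livers. No values overlapped, and its fall of 0.74 (SE 0.11, adjusted p = 0.00888) passed in all 6 fits that left out an array. Foxm1, the fork head activator of mitotic genes, had 9.33, 10.12 and 9.34 in rapamycin livers against 10.70, 10.96 and 11.06 in DMSO livers (change -1.31, SE 0.25, adjusted p = 0.0207). Mybl2 (B-Myb), which joins MuvB in S phase, changed by -1.28, the atypical repressor E2f8 by -0.92, the histone methyltransferase Suv39h1 by -0.92 and Mxd3, a Max partner, by -0.59. Myc itself had 10.25, 9.77 and 9.83 in rapamycin livers and 9.10, 9.76 and 9.43 in DMSO livers, all rapamycin values being the higher, yet its change of 0.52 was not past the threshold (SE 0.23, adjusted p = 0.192).

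**Figure D2:**
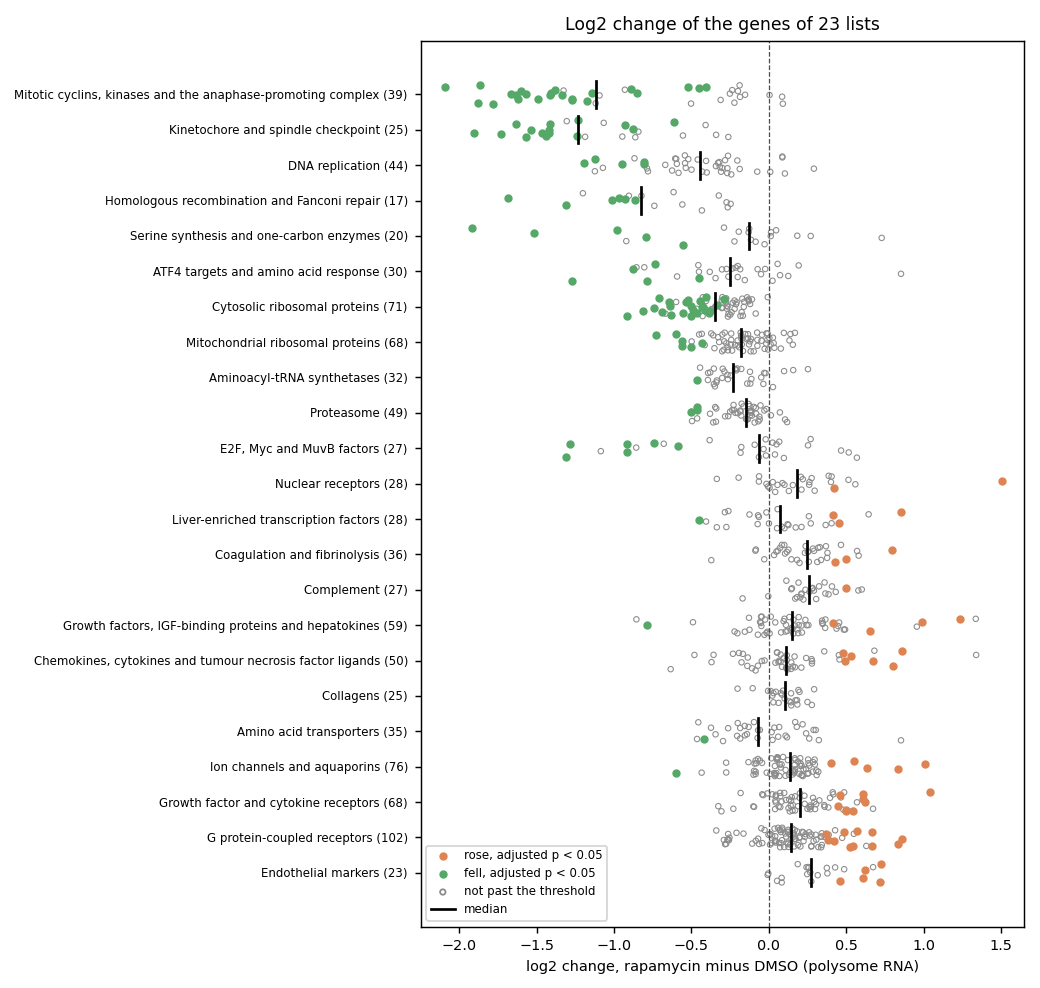
Log2 change in polysome RNA (horizontal axis, rapamycin minus DMSO) of each gene above the filter in 23 lists; the number of genes follows each list's name, filled points passed the threshold, open points did not, and the black bar is the list's median. The bars of the mitotic and kinetochore lists stand at -1.12 and -1.23, that of ribosomal proteins at -0.35, and those of receptors, coagulation and endothelial markers between 0.14 and 0.27.

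Serine synthesis fell at all 3 of its steps. Serine made from a glycolytic intermediate feeds the folate cycle, which supplies carbon for nucleotides. Phgdh, the first enzyme of that path, had 8.73, 8.06 and 8.29 in rapamycin livers and 9.63, 10.20 and 9.81 in DMSO livers, a change of -1.52 (SE 0.23, adjusted p = 0.00888). Psat1, the aminotransferase of the second step, had 9.28, 9.18 and 9.0 in rapamycin livers and 10.84, 10.94 and 11.44 in DMSO livers, a change of -1.92 (SE 0.19, adjusted p = 0.00095). Psph, the phosphatase of the last step, fell by 0.98 (adjusted p = 0.0186). For all 3 enzymes every rapamycin value lay below every DMSO value. In the mitochondrial folate cycle Mthfd2 had 9.38, 9.69 and 9.55 in rapamycin livers against 10.30, 10.21 and 10.48 in DMSO livers (change -0.79, adjusted p = 0.0112), and Mthfd1l fell by 0.55. These were the 5 of 20 serine and one-carbon genes that fell, and none rose. Unlike the cell division lists, this one held its calls: Phgdh, Psat1 and Mthfd2 passed in all 6 fits that left out an array, and 3 to 5 members fell in each of them. Of 30 genes of the amino acid response, which the factor ATF4 drives, 5 fell (16.7%, against 4.1% of all clusters). None rose, and the median was -0.25. Trib3, a pseudokinase induced by ATF4, had 7.24, 6.80 and 6.74 in rapamycin livers against 7.68, 8.42 and 8.52 in DMSO livers (change -1.27, SE 0.22, adjusted p = 0.0146). The others were the alanine aminotransferase Gpt2 (-0.87), the stress hormone Gdf15 (-0.79), the mTOR inhibitor Ddit4 (-0.73) and the transcription factor Cebpb (-0.45). In the ATF4 list 7 members fell without DMSO array 1, 2 without rapamycin array 2, 1 without rapamycin array 1 and 0 without any of the other 3 arrays.

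The letters TGATGNAAN of the amino acid response element, in which N is any base, were found on either strand in 32.0% of the 25 promoters of the ATF4 list, against 2.02% of tested genes and 3.25% of all promoters. Among the 10 genes that fell in the ATF4 and serine lists and had a promoter, 1 held them, Trib3. Its 150 bases before the start (GRCr8 chr3:161275534-161275683, minus strand) are given from RefSeq with the reverse complement of the element in capitals:
Trib3: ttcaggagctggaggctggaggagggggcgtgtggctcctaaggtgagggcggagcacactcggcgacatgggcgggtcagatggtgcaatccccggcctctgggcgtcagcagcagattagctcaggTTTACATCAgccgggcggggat

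mRNAs of the ribosome were lower as a group. Of 71 cytosolic ribosomal protein genes all 71 had changes below 0 and 24 fell (33.8%, against 4.1% of all clusters). Their median was -0.35, and -0.13 in total RNA of the same livers. Averaged over the list, the level was 12.17, 12.04 and 12.03 in rapamycin livers and 12.29, 12.54 and 12.50 in DMSO livers, so the shift was small beside the level but the arrays did not overlap. DMSO liver 1 lay between the rapamycin livers and the other DMSO livers. Rps12 fell most, with 10.18, 9.96 and 10.33 in rapamycin livers against 11.04, 10.94 and 11.25 in DMSO livers (change -0.92, SE 0.13, adjusted p = 0.00888), and was the only member that passed in all 6 fits that left out an array. Its change in total RNA was -0.28, but the difference between the fractions was not past the threshold. Rps15a, Rpl34, Rps19, Rpl27a and Rpl13 followed at -0.81, -0.74, -0.71, -0.69 and -0.65, against -0.17, -0.26, -0.14, -0.20 and -0.27 in total RNA. Ribosomal protein genes have many processed pseudogenes, and probes may be shared with them. The number that fell was 44 without DMSO array 1, and 1 to 6 when any other single array was left out (1 without DMSO array 2 or rapamycin array 3, 2 without DMSO array 3, 5 without rapamycin array 2, 6 without rapamycin array 1), while the median stayed between -0.42 and -0.29.

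A tract that starts with C and runs on with at least 4 pyrimidines within 5 bases of the annotated start was found in 62.7% of 59 ribosomal protein promoters, against 15.5% of tested genes and 15.6% of all promoters, and in 17 of the 22 ribosomal protein genes that fell and had a promoter. The starts of 6 of them that have a single annotated start are shown because the tract is the feature by which mTOR-sensitive mRNAs are known. Each runs from 5 bases before the RefSeq start to 20 after it (GRCr8), with the tract in capitals. Rpl34 lies at chr2:221962264-221962288 on the minus strand, Rpl27a at chr1:172974568-172974592 on the plus strand, Rpl13 at chr19:68062509-68062533 on the plus strand, Rps23 (change -0.64) at chr2:23814512-23814536 on the plus strand, Rpl35a (-0.56) at chr11:81235002-81235026 on the minus strand and Rpl22 (-0.53) at chr5:168117956-168117980 on the plus strand:
Rpl34: ttCCTCTTCCggggacggtgcttag
Rpl27a: tgggCTCCTCCCTCTTTCTTTTCTg
Rpl13: cccgatCCTTTCCgctcggccgttc
Rps23: ctgCCTCTCTTCTCTCTTTCTCTCg
Rpl35a: CCTTCCTCTTTCCgccatcttggcg
Rpl22: CCCCTCCCTTTCTgcctcctctgcc

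In the rest of the translation machinery single genes fell, in shares near the 4.1% of all clusters for all lists but the mitochondrial ribosomal proteins. Of 68 mitochondrial ribosomal proteins 6 fell (8.82%), Mrps22 most (-0.73), followed by Mrpl45 (-0.60), Mrps12 and Mrps27 (-0.56 each), Mrpl38 (-0.50) and Mrps25 (-0.44). Of 73 ribosome biogenesis genes 3 fell (4.11%): the rRNA methyltransferase Emg1 (-0.84), Tcof1 (-0.43), which aids RNA polymerase I, and the kinase Riok1 (-0.34). Of 45 initiation factors Eif1b (-0.54) and Eif2b2 (-0.41), a subunit of the exchange factor of eIF2, fell (4.44%). Of 24 elongation factors and other TOP mRNAs only Ybx1 fell (-0.46, 4.17% of the list), and of 32 aminoacyl-tRNA synthetases only Yars2 (-0.47, 3.13% of the list), the mitochondrial tyrosyl enzyme. Tpt1, a TOP mRNA, had a change of -0.26 in polysome RNA that was not past the threshold (adjusted p = 0.0527), and 0.12 in total RNA. In all, 37 of 312 protein synthesis genes fell (11.9%) and none rose. That count was 96 without DMSO array 1 and 1 without DMSO array 2 or rapamycin array 3, 2 without DMSO array 3, 6 without rapamycin array 1 and 7 without rapamycin array 2. Mitochondria had a share near the background, with 4 of 124 genes falling (3.23%): Dnm1l of mitochondrial fission (-0.54), the transcription factor Nrf1 (-0.46), Tomm22 of the import pore (-0.43) and Atp5mc1 of ATP synthase (-0.32). Without DMSO array 1, 18 of them fell, and none did without any other single array.

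**Figure D3:**
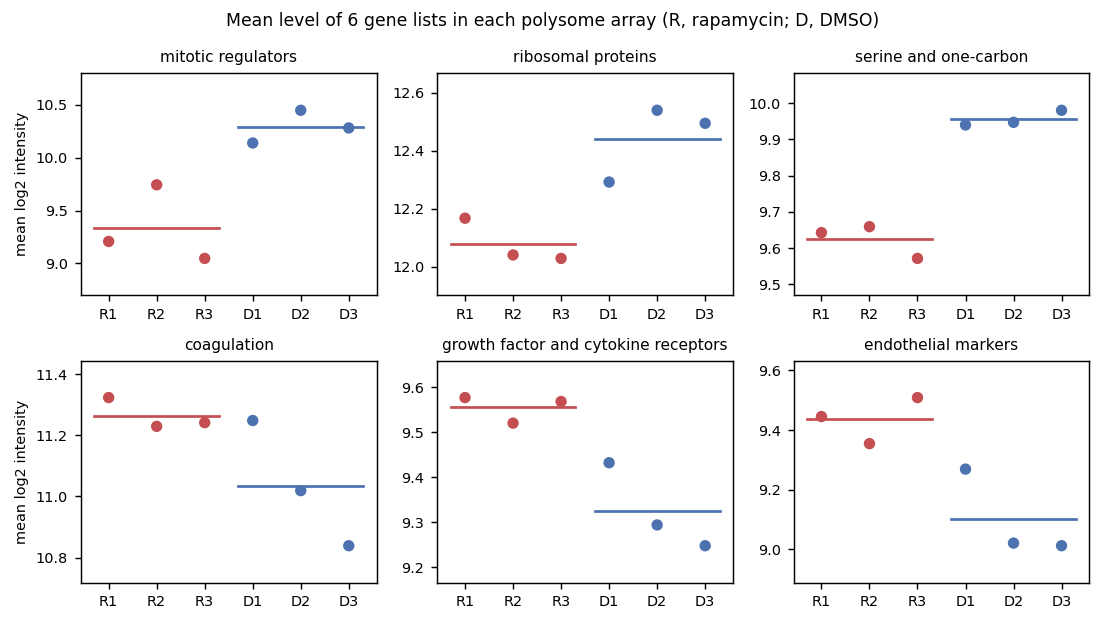
Mean log2 intensity of 6 gene lists (vertical axes) in each of the 6 polysome arrays, rapamycin (R1 to R3) left of DMSO (D1 to D3), with a line at each group's mean. DMSO array 1 was the DMSO array nearest to the rapamycin mean in all 6 panels, and its coagulation mean of 11.25 lay within the rapamycin range of 11.23 to 11.32; the serine and one-carbon list had 9.57 to 9.66 in rapamycin arrays and 9.94 to 9.98 in DMSO arrays.

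Protein folding and decay showed few calls. Of 49 proteasome genes 45 had changes below 0 and 3 fell: Psmd5 (-0.50) and Psmg2 (-0.46), which assist assembly, and the core subunit Psma5 (-0.47). Among 35 cytosolic chaperones the co-chaperone Bag2 (-0.53) and Hsf1, the heat shock factor (-0.44), fell. The only one of 41 endoplasmic reticulum genes past the threshold was Xbp1, the factor of the unfolded protein response that also drives secretion, with 13.54, 13.40 and 13.57 in rapamycin livers and 13.13, 13.26 and 12.78 in DMSO livers (change 0.45, adjusted p = 0.0336). Autophagy, which mTOR complex 1 restrains, had 37 of 47 genes above 0 and 3 that rose. Ulk2, an autophagy-starting kinase, had 10.94, 10.93 and 11.10 in rapamycin livers against 10.39, 10.11 and 10.43 in DMSO livers (change 0.68, SE 0.13, adjusted p = 0.0198), and passed in 3 of the 6 fits that left out an array. The lysosomal enzymes Ctss (cathepsin S) and Lipa (acid lipase) rose by 0.66 and 0.57, each passing in 1 of them. Of all 172 folding and decay genes 4 rose (2.33%, against 2.26% of all clusters) and 5 fell (2.91%, against 4.1%). Without DMSO array 1 it was 16 and 16, and at most 2 and 1 without any other array. Of 36 genes of the mTOR pathway Ddit4 and Sesn3 fell, by 0.73 and 0.68; both encode inhibitors of mTOR complex 1. Mtor had 9.33, 9.50 and 9.49 in rapamycin livers and 9.47, 9.65 and 9.48 in DMSO livers, a change of -0.09 that was not past the threshold.

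Apart from the cell cycle regulators, the members of the transcription factor lists that passed the threshold mostly rose. Over 312 factors 12 rose (3.85%, against 2.26% of all clusters) and 7 fell (2.24%, against 4.1%). The transcription factors Nrf1 and Hsf1, counted above in other lists, fell and are not among them. Nr0b2 (SHP), a nuclear receptor without a DNA-binding domain that represses bile acid synthesis, rose most, with 11.16, 10.91 and 11.27 in rapamycin livers and 8.96, 9.60 and 10.27 in DMSO livers (change 1.51, SE 0.24, adjusted p = 0.012). Its DMSO values were spread widely, and all lay below the rapamycin values. Onecut1 (HNF6), a factor of hepatocyte and bile duct development, had 12.45, 12.10 and 12.36 in rapamycin livers and 11.66, 11.39 and 11.31 in DMSO livers (change 0.85, SE 0.14, adjusted p = 0.0127). Npas2, a partner of BMAL1 in the clock, rose by 0.78, and its values of 9.85 to 10.12 in rapamycin livers did not overlap the 8.96 to 9.43 of DMSO livers. Epas1 (HIF-2 alpha), prominent in endothelium, rose by 0.51, Rarg, a retinoic acid receptor, by 0.42, the bile acid receptor Nr1h4 (FXR) by 0.41, Foxk1 by 0.39 and the ETS factor Etv1 by 0.36. Of 24 KLF, SP and EGR factors 3 rose, Klf7 by 0.42 and Klf2, an endothelial flow-induced factor, and Klf10, induced by TGF-beta, by 0.39 each. The only liver-enriched factor that fell was Cebpb (-0.45), which acts in regeneration, and Hnf4a, the central hepatocyte factor, had 12.79, 12.58 and 12.67 in rapamycin livers and 12.68, 12.76 and 12.65 in DMSO livers. No factor of the 58 in the IRF, STAT, SMAD, NF-kappaB and ETS list other than Etv1 passed. Without DMSO array 1, 17 factors rose and 14 fell; without rapamycin array 2 it was 7 and 7, and without any other single array 0 to 2 rose and 1 fell.

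**Figure D4:**
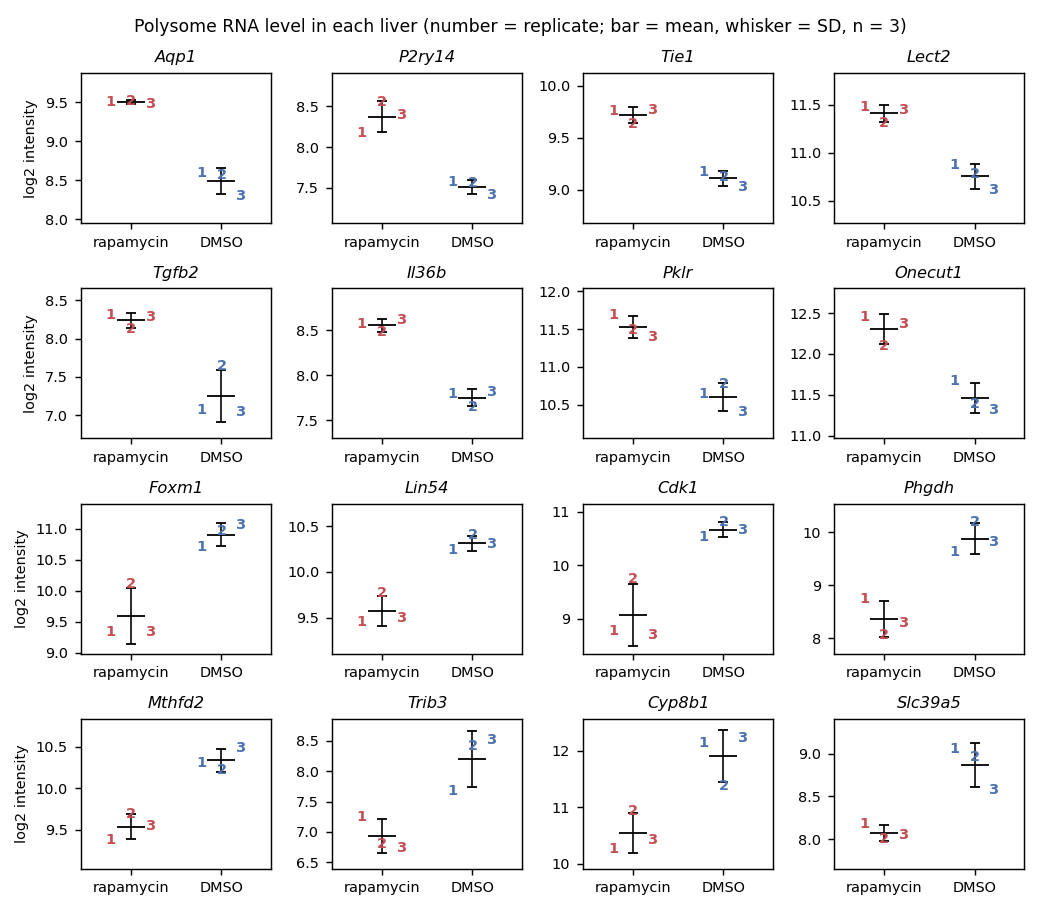
Log2 intensity (vertical axes) of 16 genes in each polysome array, rapamycin left of DMSO; each digit is 1 liver by its replicate number, the bar the mean and the whisker the SD (n = 3). All 16 were picked from genes past the threshold on these same values. Their 2 groups did not overlap, which also held for 26.9% of all clusters. Aqp1, P2ry14, Tie1, Lect2, Il36b, Pklr, Lin54, Phgdh and Mthfd2 passed in all 6 fits that left out an array.

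Genes of bile acid synthesis, sensing and export were among those past the threshold. Bile acids activate FXR, which induces SHP, and SHP lowers synthesis; export runs through canalicular pumps. Of 27 genes 4 rose (14.8%, against 2.26% of all clusters) and 1 fell (3.70%, against 4.1%). Beside Nr0b2 and Nr1h4, Abcc2 (MRP2), the canalicular pump for conjugates, had 12.50, 12.44 and 12.13 in rapamycin livers and 11.87, 11.71 and 11.71 in DMSO livers (change 0.60, adjusted p = 0.021), and Scp2, which shortens the side chain of bile acid precursors in peroxisomes, rose by 0.51. Cyp8b1, the hydroxylase that directs synthesis to cholic acid, had 10.26, 10.94 and 10.42 in rapamycin livers and 12.14, 11.38 and 12.22 in DMSO livers (change -1.38, SE 0.30, adjusted p = 0.029). Uptake carriers Slc10a1 (NTCP) and Slco1b2 had changes of 0.61 and 0.64 that were not past the threshold (adjusted p = 0.0902 and 0.0523). In both, DMSO liver 1 stood at the rapamycin level or close to it (13.29 for Slc10a1 against 12.53 and 12.31 in the other DMSO livers). Without DMSO array 1, 12 bile acid genes rose, and without any other single array 1 or 2 did; Cyp8b1 stayed past the threshold without DMSO array 1, DMSO array 2 or rapamycin array 2 only.

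Carbohydrate and lipid metabolism held few calls. Of 25 glycolytic genes only Pklr passed, which encodes the pyruvate kinase of liver and red cells. It had 11.69, 11.49 and 11.40 in rapamycin livers and 10.64, 10.77 and 10.40 in DMSO livers, a rise of 0.92 (SE 0.13, adjusted p = 0.00837) found in all 6 fits that left out an array. Pyruvate carboxylase Pc, the first enzyme of gluconeogenesis, rose by 0.73 and Phkb, a subunit of the kinase that activates glycogen breakdown, by 0.38, and mitochondrial malic enzyme Me2 fell by 0.50. None of 32 genes of fatty acid and triglyceride synthesis and none of 22 of cholesterol synthesis and uptake passed in limma, in which 8 and 3 had an unadjusted p under 0.05. Of the 22 cholesterol genes 21 had changes above 0, with a median of 0.21. Averaged over the list, the level was 11.253, 11.202 and 11.634 in rapamycin livers and 11.356, 11.129 and 10.821 in DMSO livers, so the groups overlapped. Among those 22, Fdft1 (squalene synthase) was nearest to passing, with 12.66, 12.54 and 12.77 in rapamycin livers and 12.49, 12.20 and 11.77 in DMSO livers (adjusted p = 0.108). Of 36 genes of fatty acid oxidation Hsd17b4, a peroxisomal enzyme, rose by 0.40. Acot1, an acyl-CoA thioesterase, had 5.06, 6.33 and 5.96 in rapamycin livers and 6.01, 8.85 and 12.08 in DMSO livers; it is named after its values were seen, for the largest change in size of any gene tested, and its change of -3.20 was not past the threshold (SE 1.40, adjusted p = 0.178). Of 85 carbohydrate genes 3 rose (3.53%) and 1 fell (1.18%). Of 116 lipid genes, the bile acid list included, 5 rose (4.31%) and 1 fell (0.862%). Over all clusters 2.26% rose and 4.1% fell. Without DMSO array 1, 7 carbohydrate and 20 lipid genes rose. Without any other single array 1 and at most 2 did.

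Amino acid breakdown changed gene by gene. Of the 127 genes of amino acid metabolism 5 rose (3.94%, against 2.26% of all clusters) and 14 fell (11%, against 4.1%). Of those that fell, the serine and ATF4 lists held 10, Gpt2 of the urea cycle list included. Kmo, the kynurenine hydroxylase of tryptophan breakdown, had 11.61, 11.67 and 11.72 in rapamycin livers and 10.72, 10.36 and 10.04 in DMSO livers. The rapamycin values lay close together and above all DMSO values, and the rise of 1.30 (SE 0.21, adjusted p = 0.0112) passed in all 6 fits that left out an array. In branched-chain breakdown Acadsb, an acyl-CoA dehydrogenase, rose by 0.83 and Bckdha, of the branched-chain keto acid dehydrogenase, by 0.73. Mat1a, which makes S-adenosylmethionine in adult liver, had 13.21, 13.21 and 13.24 in rapamycin livers and 12.80, 12.77 and 12.46 in DMSO livers (change 0.54, adjusted p = 0.0125), and Gls2, the liver glutaminase, rose by 0.66. Cbs of transsulfuration (-0.59), Nags (-0.59), which makes the activator of the urea cycle, Ddc (-0.57) and tyrosine aminotransferase Tat (-0.46) fell. The 14 became 16 without DMSO array 1 and 11 without rapamycin array 2, 6 without DMSO array 3, 5 without rapamycin array 1 and 3 without DMSO array 2 or rapamycin array 3; the 5 that rose became 15 without DMSO array 1 and at most 2 without any other. Of 137 detoxification and haem genes 3 rose (2.19%, against 2.26% of all clusters) and 1 fell (0.73%, against 4.1%). Nqo1, a quinone reductase induced by NRF2, rose by 0.80, Cyp4f6 by 0.60 and Gsta1, a glutathione transferase, by 0.40. Cpox of haem synthesis changed by -0.47. Within the P450 families 32 of 40 genes had changes above 0 with a median of 0.26, and 1 passed. Of all 10203 genes, 4899 had changes above 0. Averaged over the P450 list, the level was 10.584, 10.643 and 10.795 in rapamycin livers and 10.809, 10.238 and 10.134 in DMSO livers. DMSO liver 1 thus lay above every rapamycin liver. All 13 glucuronosyl- and sulfotransferases were above 0, 4 of them at an unadjusted p under 0.05, and none passed in limma. Without DMSO array 1, 23 detoxification genes rose; without any other single array 0 or 1 did.

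Secreted proteins rose more often than they fell. Of 351 genes of secreted proteins above the filter (468 were on the array), 24 rose, or 6.84% against 2.26% of all clusters, and 3 fell, or 0.855% against 4.1%; the median change was 0.16. The count was 105 without DMSO array 1. It was 14 without rapamycin array 2, and without DMSO array 2 or 3 or rapamycin array 1 or 3 it was 4 each. In the clotting list 32 of 36 genes had changes above 0 and 3 rose: F11 by 0.79, the protease Habp2 by 0.50 and F5 by 0.43. F11, the zymogen of factor XIa, had 10.63, 10.78 and 10.69 in rapamycin livers and 10.36, 9.86 and 9.50 in DMSO livers, so that DMSO liver 1 again lay nearest. Of 27 complement genes 25 were above 0 and C9, of the membrane attack complex, rose by 0.50. The mean level of the complement list in DMSO liver 1 was 11.785, within the 11.727 to 11.854 of the rapamycin livers. Ceruloplasmin Cp, the copper carrier, rose by 0.70 and Apoh by 0.28. Alb had 14.25, 14.31 and 14.23 in rapamycin livers and 14.28, 14.18 and 14.05 in DMSO livers, a change of 0.09 that was not past the threshold, and Afp, the fetal counterpart, had a change of -0.10. Among serpins Serpina7, thyroxine-binding globulin, had 11.80, 10.92 and 11.48 in rapamycin livers and 9.96, 9.80 and 9.86 in DMSO livers (change 1.52, SE 0.27, adjusted p = 0.0169). Serpinb6a rose by 0.56 and Serpinb8 fell by 0.92, both members of the intracellular clade of the family.

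Signals sent by the liver included several that rose. Of 59 growth factors, IGF-binding proteins and hepatokines 4 rose (6.78%, against 2.26% of all clusters) and 1, Gdf15, fell (1.69%, against 4.1%). Inhba, the subunit of activin A, which restrains hepatocyte growth, had 10.53, 10.55 and 11.07 in rapamycin livers and 10.05, 9.13 and 9.28 in DMSO livers (change 1.23, SE 0.28, adjusted p = 0.0328). Tgfb2, of the same superfamily, had 8.31, 8.12 and 8.29 in rapamycin livers and 7.06, 7.64 and 7.04 in DMSO livers (change 0.99, SE 0.20, adjusted p = 0.0237). Lect2, a hepatokine, had 11.48, 11.31 and 11.45 in rapamycin livers and 10.87, 10.78 and 10.62 in DMSO livers, and its rise of 0.66 (SE 0.09, adjusted p = 0.00888) passed in all 6 fits that left out an array. Igfbp7 rose by 0.42. Igfbp1, an early regeneration gene, had 13.10, 12.15 and 12.36 in rapamycin livers and 10.51, 11.46 and 11.63 in DMSO livers, groups that did not overlap, but its change of 1.34 was just outside the threshold (adjusted p = 0.0554). Of 50 chemokines and cytokines 6 rose and none fell: Ccl4 by 0.86, Il36b by 0.80, Ccl3 by 0.67, Cxcl14 by 0.53, Ccl6 by 0.49 and Il33, an alarmin, by 0.48. Il36b, of the interleukin-1 family, had 8.57, 8.47 and 8.61 in rapamycin livers and 7.79, 7.65 and 7.81 in DMSO livers. It and Ccl6 passed in all 6 fits that left out an array, and Ccl4 in 5. Il1rn, the interleukin-1 receptor antagonist, rose by 0.78, with 11.44, 11.02 and 11.30 in rapamycin livers against 10.50, 10.49 and 10.45 in DMSO livers. In the matrix none of 25 collagen genes passed in limma and 1 had an unadjusted p under 0.05, the nearest 2 being Col11a1 (0.14) and Col5a2 (0.28). Thbs1, which activates latent TGF-beta, rose by 0.70, the convertase Pcsk6 by 0.55, the inhibitor Timp2 by 0.51, Adamts2, which trims procollagen, by 0.37 and Mmp28 by 0.32, and Adamts9 fell by 0.36. For the collagen list no member was called at an adjusted p under 0.05 in the fit on the 6 polysome arrays alone either.

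In both receptor lists the members past the threshold rose. Of 68 growth factor and cytokine receptors 9 rose (13.2%), and of 102 G protein-coupled receptors 11 did (10.8%), against 2.26% of all clusters. Of the G protein-coupled receptors 162 were on the array, 60 of them below the filter. Outside these lists, Sctr, the secretin receptor, fell by 0.56 and Tnfrsf9, a costimulatory receptor, by 0.71. Ror1, a Wnt5a receptor, had 10.99, 10.99 and 10.75 in rapamycin livers and 10.13, 9.88 and 9.61 in DMSO livers (change 1.04, SE 0.13, adjusted p = 0.0054). P2ry14, a receptor for UDP-sugars, had 8.17, 8.56 and 8.39 in rapamycin livers and 7.57, 7.56 and 7.42 in DMSO livers (change 0.86, SE 0.13, adjusted p = 0.00888). Both passed in all 6 fits that left out an array, as did Tie1. Fzd4, a Wnt and norrin receptor, had 11.98, 12.11 and 12.03 in rapamycin livers and 11.32, 10.88 and 11.41 in DMSO livers (change 0.84, adjusted p = 0.0138) and passed in 5. Tek (TIE2), the angiopoietin receptor, and Il1rap, the shared interleukin-1 receptor subunit, rose by 0.62 and 0.61, Fgfr2, which binds FGF7 and FGF1 in epithelia, by 0.54 and Pdgfrb, the receptor of stellate cells, by 0.50. The adhesion receptors Adgre1 (a macrophage surface protein, 0.67), Adgre4 (0.67), Adgre5 (0.57) and Adgrl1 (0.54) rose as well. Spry1, which feeds back on receptor tyrosine kinases, rose by 0.55 and Pias3, an inhibitor of STAT3, fell by 0.36. Of 61 Wnt, Notch and Hippo genes none passed in limma, and 13 had an unadjusted p under 0.05. In the insulin list Trib3, the phosphatidylinositol kinase subunit Pik3r3 (-0.52) and the AKT phosphatase Phlpp2 (-0.41) fell. Of 38 apoptosis and p53 genes Bmf, a BH3-only protein, rose by 0.99, while Ccng1, Tp53inp1 (-0.53), Fadd (-0.51), Bak1 (-0.45) and Mdm4 (-0.42) fell. Thus 2.63% of this list rose and 13.2% fell, against 2.26% and 4.1% of all clusters. Signalling genes that rose numbered 46 without DMSO array 1; without rapamycin array 2, 14 did, and without any other single array 3 to 6.

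Several of these receptors mark cells other than hepatocytes. In bulk tissue, a change in the number of cells of a type and a change in RNA per cell cannot be told apart. All 23 endothelial markers were above the filter, 21 had changes above 0 and 5 rose (21.7%, against 2.26% of all clusters): Emcn (0.72), Plvap (0.72), Tek, Tie1 and Ramp2 (0.46). Their summed intensity was 23980 to 27220 in rapamycin livers and 19387 to 23488 in DMSO livers, without overlap. Tie1, an endothelial receptor, had 9.75, 9.63 and 9.77 in rapamycin livers and 9.18, 9.13 and 9.03 in DMSO livers (change 0.61, SE 0.09, adjusted p = 0.00888). Among 23 macrophage markers 20 were above 0 and Adgre1 rose, and the sums overlapped, with 28656 to 33470 in rapamycin livers and 21667 to 29435 in DMSO livers. Of 21 stellate cell and fibroblast markers Pdgfrb and Colec11 (0.52) rose, with sums of 17828 to 17928 in rapamycin livers and 15470 to 18722 in DMSO livers. Of 24 lymphocyte markers on the array only 11 were above the filter. Of these Cd37 (0.45) and Cd74 (0.43) rose, with sums of 9183 to 10463 in rapamycin livers and 7084 to 7862 in DMSO livers. Cd74, at 12.45 to 12.65 in rapamycin livers and 11.98 to 12.18 in DMSO livers, made up most of these sums. Of 12 bile duct markers Onecut1 rose and Prom1 (-0.93) and Sctr (-0.56) fell, with sums of 14722 to 17457 in rapamycin livers and 12170 to 14621 in DMSO livers. Onecut1 weighs heavily in this linear sum. The mean log2 levels of the list overlapped, with 8.70, 8.79 and 8.64 in rapamycin livers and 8.73, 8.77 and 8.63 in DMSO livers. No granulocyte or erythroid marker passed in limma, 0 of 16 and 3 of 23 having an unadjusted p under 0.05, and their sums overlapped between groups. Hepatocyte markers, by far the strongest, summed to 241070 to 244450 in rapamycin livers and 214330 to 251670 in DMSO livers, and of 19 Apoh rose and Tat fell. The part of these marker levels in the changes of receptors, chemokines and endothelial factors was not tested. Endothelial markers that rose numbered 11 without DMSO array 1; without rapamycin array 2, 3 did, and without any other single array 1.

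Transporters and channels held few calls. Of 380 above the filter (596 were on the array) 10 rose (2.63%, against 2.26% of all clusters) and 7 fell (1.84%, against 4.1%). Slc16a4, a monocarboxylate transporter, had 11.29, 11.46 and 11.43 in rapamycin livers and 10.94, 10.13 and 9.76 in DMSO livers (change 1.11, SE 0.27, adjusted p = 0.0368). Abca8a, a lipid transporter, rose by 0.80, the bicarbonate carrier Slc4a4 by 0.51 and the choline carrier Slc44a1 by 0.40. Slc39a5, a zinc importer, had 8.18, 8.0 and 8.04 in rapamycin livers and 9.06, 8.96 and 8.58 in DMSO livers (change -0.79, SE 0.14, adjusted p = 0.0147), and passed in 4 of the 6 fits that left out an array. The mitochondrial carriers of oxodicarboxylates (Slc25a21, -0.81), iron (Slc25a28, -0.55) and adenine nucleotides (Slc25a4, -0.50), the nucleotide sugar carrier Slc35b4 (-0.48) and Slc7a6 (-0.42), an amino acid exchanger, fell. Slc7a6 was the only one of 35 amino acid transporters past the threshold. No member of the 26 organic anion and cation transporters or of the 39 pumping and flipping ATPases passed in limma, and 5 and 7 of them had an unadjusted p under 0.05. Among 76 channels 5 rose and 1 fell. Aqp1, the water channel of bile duct and endothelial cells, had 9.50, 9.52 and 9.47 in rapamycin livers and 8.59, 8.57 and 8.30 in DMSO livers (change 1.01, SE 0.13, adjusted p = 0.00689), in all 6 fits that left out an array. The gap junction proteins Gjb2 (connexin 26) and Gja1 (connexin 43) rose by 0.83 and 0.64, the calcium channel Trpm2 by 0.55 and the scramblase Ano6 by 0.40, and the chloride exchanger Clcn5 fell by 0.60. Without DMSO array 1, 28 transporters and channels rose and 10 fell, while 1 to 3 rose and 0 to 3 fell without any other single array.

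Of 44 genes of liver zonation 2 rose (4.55%, against 2.26% of all clusters) and 2 fell (4.55%, against 4.1%). Of 21 pericentral hepatocyte genes Lect2 rose. Of 23 periportal genes Gls2 rose, and Hsd17b13, a lipid droplet enzyme (-0.68), and Tat fell. Of all 44, 12 rose without DMSO array 1.

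Some of the strongest changes lay outside these lists. Among the genes ranked 11 to 30 by their rise, Ang2 (1.04), a ribonuclease of the angiogenin family, Pigp (1.02), which acts in the first step of GPI anchor synthesis, the ubiquitin ligases Rnf186 (1.01) and Fbxo32 (0.93), Mamdc2 (0.90), Adcy10 (0.89), the soluble adenylyl cyclase, Trem1 (0.88), an activating receptor of myeloid cells, Sat1 (0.86), which acetylates spermidine and spermine for breakdown, Srgn (0.84), the core of a proteoglycan of blood cell granules, and Nsmf (0.83) had not been named in any list above. Pigp had 11.19, 11.22 and 11.09 in rapamycin livers and 10.23, 9.77 and 10.45 in DMSO livers, with a change of 0.40 in total RNA. Trem1 had 9.38, 9.34 and 9.42 in rapamycin livers and 8.47, 8.52 and 8.53 in DMSO livers, with a change of 0.33 in total RNA. Neither differed past the threshold between the fractions. Of the fallers ranked 11 to 30, all but 4 belonged to the mitotic lists; these were Parpbp and Phgdh, given above, Prr11 (-1.45) and Arhgef39 (-1.43).

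A set of 35 genes passed in all 6 fits that left out a polysome array, and those not yet named are given here after their values were seen. Mocos, which puts sulfur on the cofactor of xanthine and aldehyde oxidases, had 10.43, 10.27 and 10.22 in rapamycin livers and 8.62, 8.35 and 8.63 in DMSO livers (change 1.77, SE 0.11, adjusted p = 2.15e-05). Nnmt, which uses S-adenosylmethionine to methylate nicotinamide, had 9.57, 9.62 and 9.59 in rapamycin livers and 10.87, 10.54 and 10.74 in DMSO livers (change -1.13, SE 0.10, adjusted p = 0.00075). Amd1, the decarboxylase that commits S-adenosylmethionine to polyamines, had 9.28, 9.19 and 9.14 in rapamycin livers and 9.88, 10.06 and 10.52 in DMSO livers (change -0.95, SE 0.14, adjusted p = 0.00888). None of the 3 genes overlapped between the groups, and for Mocos and Nnmt the gap was wider than the spread within either group. Txnip, the thioredoxin-binding protein that restrains glucose uptake, rose by 0.70, with 11.21 to 11.45 in rapamycin livers and 10.55 to 10.74 in DMSO livers, and Wdr89 rose by 0.66. Cep128 (-1.35) and Poc1a (-1.07) of centrioles, Faap24 (-0.90) of the Fanconi core complex, Pip4p2 (-1.05), Phlda2 (-0.97), Miip (-0.95), the small GTPase Rab13 (-0.86), the RNase P subunit Rpp25 (-0.80), the costimulatory receptor Tnfrsf9 (-0.71), Tmem97 (-0.63), a sterol-regulated membrane protein, and Fem1b (-0.58), a substrate receptor of a ubiquitin ligase, fell.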

How the data were processed

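Intensities per transcript cluster were the authors' deposited values, made with RMA per the submitters' processing notes, with no settings recorded there; 28826 rows ran from 3.77 to 28447 on a linear scale in 40 arrays. Here log2 of the deposited intensities was used without further scaling. Of the rows, 15209 had 1 gene symbol, 306 several and 13311 none in the platform annotation; 15178 of the single symbols matched RefSeq. Tested were 10860 named clusters with a mean log2 of at least 6.70, the 30th percentile. The contrast of 3 rapamycin and 3 DMSO polysome arrays was taken from group means over the 12 hepatectomy arrays (limma 3.58.1 in R 4.3.3, eBayes with intensity trend, two-sided, Benjamini-Hochberg, threshold 0.05), with no pairing and 8 residual degrees of freedom. It was also run on simulated data with independent noise in each array. That simulation held no correlation between polysome and total arrays of the same liver and no outlying array. It therefore cannot show how the calls depend on single arrays. A gene with several clusters is given by the one with the highest mean over all arrays.

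Members and lists were chosen with earlier results of these data known. Named are the 6 largest rises and falls past the threshold in each list, the 2 smallest p-values where fewer than 2 passed, genes ranked 11 to 30 by size, 10 fixed genes, and those said to be chosen later. Lists are described by counts and medians. Replicates are labelled biological. Alternatives were other scalings, filters, blocks and arrays, and each polysome array left out. The number of arrays limits the precision. Promoters are RefSeq's, build GRCr8; of 10203 tested genes 8455 had one, 373 of these with several starts, of which the first listed was used. No position of any item is given on the authors' build.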

Additional observations from a re-analysis of the deposited data

How the results depend on the processing

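The counts of clusters that rose (245) and fell (445) depended on the arrays and on how the spread was pooled. They were 27 and 166 with all 40 arrays in the fit and 40 and 106 on the polysome arrays alone. With no filter 161 rose. With the replicate number as a block on the 6 polysome arrays 69 rose and 254 fell. Same-numbered rapamycin and DMSO arrays deviated together with correlations of -0.065, 0.28 and 0.060, and not every array correlated best with its own number. With 3 arrays per group these values cannot settle whether the numbers pair the samples. Leaving out 1 polysome array gave 26 to 628 that rose and 30 to 1059 that fell. The liver as a random block (295 and 601), array weights, cyclic loess (296 and 414), quantile scaling (270 and 334), a stricter filter and no intensity trend kept both counts within 1.5 times. No called cluster changed sign in any alternative, though the clusters were chosen on these arrays and several alternatives leave the changes themselves as they were. The comparison of polysome with total RNA called 0 clusters in every fit that held both; with the liver as a random block 505 had an unadjusted p under 0.05. Values near 0 turned over: over the fits that left out 1 array, Ccnd1 ran from -0.31 (without DMSO replicate 1) to 0.34, Afp from -0.25 to 0.059 (without DMSO replicate 2) and Hnf4a from -0.071 to 0.034 (above 0 without DMSO replicate 2 or rapamycin replicate 2). The cause was not tested. Groups of 3 arrays limit which small changes can be called.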

Other observations

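A few genes had one or more livers far from the others, and are given as values. Ugt2b, a glucuronosyltransferase, had 11.03, 11.34 and 10.98 in rapamycin livers and 5.28, 9.86 and 9.80 in DMSO livers, a change of 2.80 that was not past the threshold (limma adjusted p = 0.206). Akr1c2, an aldo-keto reductase, had 6.42, 6.75 and 9.52 in rapamycin livers and 9.55, 9.97 and 10.41 in DMSO livers, with a change of -2.41 (adjusted p = 0.087). For Popdc2, which encodes a cyclic AMP-binding membrane protein, the values were 8.58, 9.07 and 9.70 in rapamycin livers and 7.63, 7.11 and 7.87 in DMSO livers, and its rise of 1.58 passed (adjusted p = 0.012). These genes were chosen after their values were seen.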
